A study of Mus musculus with 6 samples.

Results

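Genes of the marrow niche, 9 that stromal cells use or are known by and the receptor Cxcr4 that reads the main signal among them, were followed across the mouse calvaria: Cxcl12, Cxcr4, Kitl, Lepr, Adipoq, Vcam1, Ebf3, Foxc1, Il7 and Angpt1. They were taken by symbol from the gene list, 10 of 55450 genes, and all 10 were among the 27840 genes with UMIs in more than 3 cells. The study asked how the cells of the cranial niches change with age and with distance from the suture, by droplet single-cell RNA-seq of wild-type C57BL/6 mice. CBMA libraries were made from the sagittal suture and neighbouring parietal bone, and CBMD libraries from parietal bone away from the sutures, each at 2 months (02m), 12 months (12m) and 18 months (18m). Values given in threes below run in that order of age. Dura mater and periosteum had been removed, the bone was digested with collagenases and dispase, and the 6 to 8 mice of an age, stated to be male, were pooled. Each of the 6 conditions was therefore 1 library, no mouse could be told from another, and no test across mice was possible. Ratios carry exact 95% intervals from the UMI sums, shares carry exact binomial intervals (Clopper-Pearson), and both cover counting error only.

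The files held 43420 barcodes, of which 37576 cells passed the limits (2718 to 8580 a library, with a median of 2806 to 3931 UMIs per cell and 202934545 UMIs in all). Both 12m libraries carried the female transcript Xist, at 564 CPM across CBMA and 596 CPM in CBMD, against 0.252 to 0.360 CPM in the other 4 libraries, although all mice were stated to be male. Xist UMIs were found in 20 of 35 stromal cells of CBMA_12m and in 18 of 46 of CBMD_12m, so the niche cells of these libraries share this feature, and its part in the 12m values was not tested. The comparisons of 18m with 02m and of the sites at 18m do not use these libraries. Any 2 libraries shared 7 to 25 barcodes. Scrublet marked 194 cells (0.516%) as doublets by its own threshold, and cells marked by rank (2393, 6.37%) were left out only as an alternative.

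In marrow, the chemokine Cxcl12 is secreted by perivascular reticular stromal cells and holds cells that carry its receptor Cxcr4, among them blood stem cells, B-cell precursors and neutrophils, which leave for the blood as the signal weakens. The same reticular cells are the known source of stem cell factor (Kitl) and interleukin 7, carry the leptin receptor Lepr and the adipocyte hormone gene Adipoq, and depend on the transcription factors Foxc1 and Ebf3 to remain niche cells rather than bone-forming cells. Endothelial cells add Kitl and the adhesion molecule Vcam1, and angiopoietin 1 (Angpt1) acts on the endothelial receptor Tek.

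The promoters of the 2 ends of the axis and of Adipoq are shown because they differ in their base composition. The sequences are the 250 bases before the gene start in RefSeq (GRCm38.p6), 5′ to 3′ on the gene's strand, with capitals marking GC boxes (GGGCGG or CCGCCC) and TATA boxes (TATAAA or TTTATA). Cxcl12 lies on the plus strand of chromosome 6 and its window is chr6:117168285-117168534, Cxcr4 lies on the minus strand of chromosome 1 and its window is chr1:128592300-128592549, and Adipoq lies on the plus strand of chromosome 16 and its window is chr16:23146286-23146535.
Cxcl12: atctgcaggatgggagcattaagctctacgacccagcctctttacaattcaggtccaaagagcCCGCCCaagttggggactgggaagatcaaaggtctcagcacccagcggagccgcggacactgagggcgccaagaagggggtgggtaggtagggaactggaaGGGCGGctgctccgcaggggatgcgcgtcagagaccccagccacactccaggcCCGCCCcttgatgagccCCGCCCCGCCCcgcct
Cxcr4: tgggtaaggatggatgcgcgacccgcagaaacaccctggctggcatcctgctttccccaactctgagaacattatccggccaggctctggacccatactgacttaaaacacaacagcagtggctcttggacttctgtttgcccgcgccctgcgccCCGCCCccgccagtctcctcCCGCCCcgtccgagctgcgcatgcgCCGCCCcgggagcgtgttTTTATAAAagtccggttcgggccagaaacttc
Adipoq: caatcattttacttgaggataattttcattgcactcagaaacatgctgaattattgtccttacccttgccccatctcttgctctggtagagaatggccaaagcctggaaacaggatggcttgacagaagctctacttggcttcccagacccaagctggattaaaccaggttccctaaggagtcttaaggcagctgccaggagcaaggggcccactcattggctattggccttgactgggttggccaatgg
The Cxcl12 window held 5 GC boxes, some overlapping, at 64.4% G and C, and the Cxcr4 window held 3 GC boxes and a TATA box read on both strands with overlap, at 61.2% G and C. The Adipoq window held neither, at 48.8% G and C. Promoter entries were found for 7 of the 10 genes. Lepr had more than 1 window, with 0 GC boxes at chr4:101717157-101717406 and 1 at chr4:101717656-101717905. A GC box stood in at least 1 window of 6 of the 7 genes (not Adipoq), against 32.7% of 32851 promoters of the same length. A TATA box stood in the windows of Cxcr4 and Kitl, against 12.4%. Matches to 3 more motifs were sought on either strand. An EBF motif (TCCC and GGGA with 2 bases between them) stood in 0.779% of promoters. A forkhead motif (TGTTTAC or GTAAACA) stood in 3.17% and a hypoxia response motif (ACGTG or CACGT) in 16.6%. None of them stood in a window of the 7 genes, which says only that these letters were not there.

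The cells that could hold these transcripts were found by clustering without the 10 genes, so the level of none of them was used to form a cluster. Other genes with levels below were not left out, and some of them were markers that named the clusters. Stroma was the mesenchymal cluster after sub-clusters led by neutrophil genes (45 cells), Schwann-cell genes (27 cells) and mural genes (18 cells) were set aside, and it held 509 cells, 1.35% of all cells. A stromal cell with at least 1 Lepr UMI was called Lepr-positive (237 cells, of which 46 had exactly 1 Lepr UMI), and the other 272 were called other stroma, so Lepr itself is fixed by this rule in both. As a second reading that does not use Lepr, sub-clusters of stroma named from reticular markers such as Hp, Lpl, Gas6 and Kng1 were called marrow reticular (162 cells, of which 156 were Lepr-positive). Markers of other cells were present in Lepr-positive cells. The neutrophil transcript S100a8 stood at 251, 1468 and 244 CPM across CBMA and 429, 518 and 188 CPM across CBMD, above several of the niche genes below, and it reached 2537 CPM in the 4 reticular cells of CBMA_12m. The summed level of the markers of mature neutrophils was 88.0 to 395 CPM a library, of immature neutrophils 50.5 to 753 CPM and of neutrophil precursors, a list that holds cell-cycle genes, 215 to 1974 CPM. The leukocyte gene Ptprc was at 3.56 to 37.6 CPM and the endothelial gene Cdh5 at 0 to 9.81 CPM. Endothelial cells had more S100a8 in each library, at 8394, 2816 and 1475 CPM across CBMA and 872, 6996 and 2077 CPM across CBMD. Cells led by neutrophil genes had been set aside from stroma but not from endothelial cells, so the classes compared were not treated alike. Mural cells had 314, 1203 and 1981 CPM of it across CBMA and 9812 and 543 CPM at 02m and 12m in CBMD. The part of such foreign RNA in the values was not tested, and this holds for the endothelial and mural values below as well.

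With the 6 libraries pooled, of which CBMA_18m gave 24245 of the 40423 Cxcl12 UMIs, Lepr-positive stroma, 0.631% of the cells, held most of the UMIs of 6 of the 10 genes. It held 88.0% of the Cxcl12 UMIs, 89.5% of those of Adipoq, 81.5% of those of Ebf3, 67.9% of those of Il7 and 64.2% of those of Kitl, and by the rule 88.6% of those of Lepr. Foxc1 was more widely spread, with 46.3% in Lepr-positive stroma, 21.3% in other stroma, 12.6% in endothelial cells and 12.6% in mural cells. Vcam1 came 31.0% from Lepr-positive stroma, 32.3% from macrophages and dendritic cells, 13.7% from endothelial cells and 12.0% from neutrophils. Angpt1 was mostly outside the stroma, with 56.1% of its UMIs in blood progenitors, 18.6% in basophils and 11.6% in Lepr-positive stroma. The receptor Cxcr4 lay on the blood side, with 56.0% of its UMIs in neutrophils and 17.7% in monocytes. A further 10.5% lay in a cluster led by histone genes (1853 cells, left unnamed). Its share of Cxcr4 UMIs was 25.3% in CBMA_02m and 6.47% in CBMA_18m, and 16.2% in CBMD_02m and 6.29% in CBMD_18m. It held 903 cells of CBMA_02m and 116 of CBMA_18m, and 614 of CBMD_02m and 147 of CBMD_18m.

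**Figure D1:**
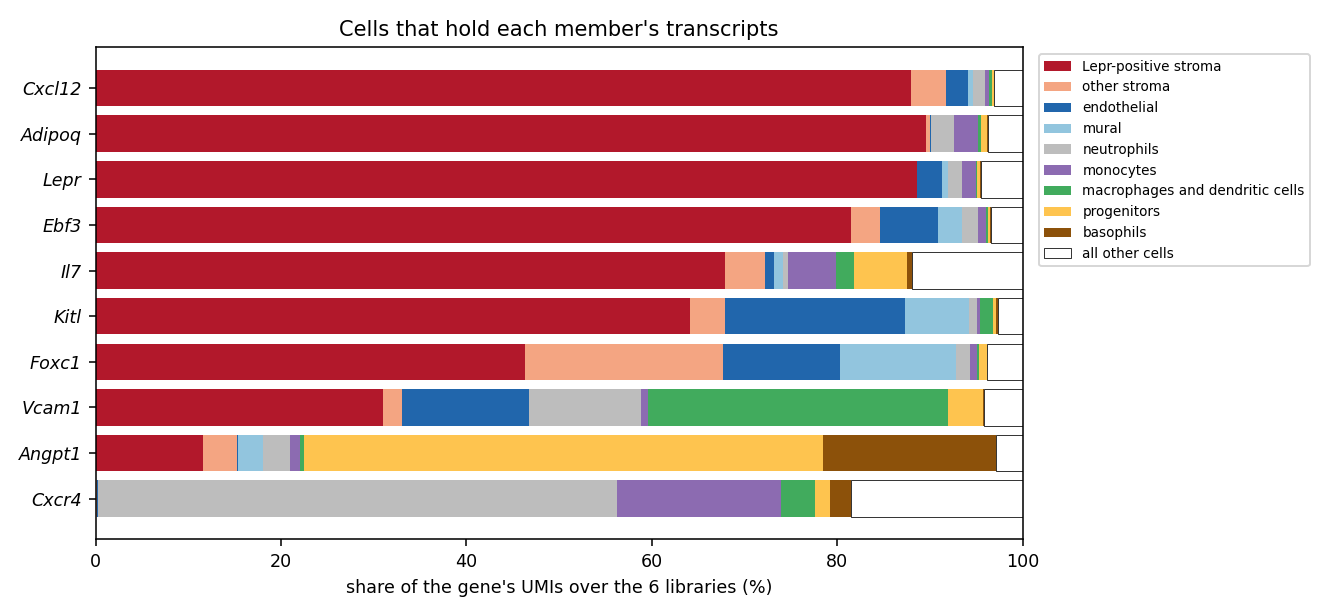
Share of each gene's UMIs over the 6 libraries (horizontal axis, %) by cell class (colours), with the class of each bar part in the legend. Lepr-positive stroma held 88.0% of the pooled Cxcl12 UMIs, most of them from 18m, but 13.4% of those of CBMA_02m and 4.89% of those of CBMD_02m.

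These shares were not the same at each age. Lepr-positive stroma held 88.4% of the Cxcl12 UMIs of CBMA_18m and 94.7% of those of CBMD_18m, against 13.4% of those of CBMA_02m and 4.89% of those of CBMD_02m, where endothelial cells held 57.1%. It held 94.1% of the Adipoq UMIs of each site at 18m, against 11.5% of 26 UMIs in CBMA_02m and 0% of 23 in CBMD_02m. For Vcam1 it held 43.0% in CBMA_18m and 26.6% in CBMD_18m, against 1.13% in CBMA_02m and 0.680% in CBMD_02m, and neutrophils held the largest share at 02m, 66.5% in CBMA and 55.1% in CBMD. Kitl, the ligand of Kit on blood progenitors, came mostly from Lepr-positive stroma at 18m, at 67.7% of the UMIs of CBMA and 86.5% of those of CBMD, with 16.1% and 5.39% from endothelial cells. At 02m endothelial cells held 56.7% of the Kitl UMIs of CBMA and 42.6% of those of CBMD, where mural cells held a further 47.8%. The share of Foxc1 UMIs in Lepr-positive stroma was 10.8%, 5.52% and 48.1% with age across CBMA and 10.8%, 56.5% and 80.2% across CBMD. Source shares follow both the number of cells captured and their level, which are taken apart below.

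The number of niche cells captured differed strongly with age. Stroma counted 54 of 8580, 35 of 2718 and 272 of 7232 cells with age across CBMA, and 46 of 7956, 46 of 4464 and 56 of 6626 cells in CBMD. These are shares of 0.629% (0.473 to 0.820), 1.29% (0.899 to 1.79) and 3.76% (3.33 to 4.23) in CBMA, and of 0.578% (0.424 to 0.770), 1.03% (0.755 to 1.37) and 0.845% (0.639 to 1.10) in CBMD. The stromal share thus had its highest value in CBMA_18m, and in CBMD the intervals at the 3 ages overlapped.

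Lepr-positive cells moved further than stroma as a whole. The 3 CBMA libraries held 8, 11 and 134 of them and the 3 CBMD libraries 8, 28 and 48, which were 14.8%, 31.4% and 49.3% of the stromal cells of CBMA and 17.4%, 60.9% and 85.7% of those of CBMD. The marrow reticular sub-clusters held 2, 4 and 96 cells in CBMA and 0, 20 and 40 cells in CBMD. At CBMD_02m, 0 of 7956 cells allows a share of up to 0.0464%, the upper end of the binomial interval. Only 1 of the 8 Lepr-positive cells of CBMA_02m and 0 of the 8 of CBMD_02m were reticular, against 94 of 134 and 39 of 48 at 18m. The summed level of 8 suture and periosteal markers, such as Postn and Sfrp2, was 17124, 5645 and 3585 CPM in the Lepr-positive cells of CBMA and 17324, 1278 and 1031 CPM in those of CBMD. The Lepr-positive class was therefore made mostly of reticular cells at 18m and of other stromal cells at 02m.

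Vascular cells varied between libraries as well, which bears on any share read as a number of niche cells. Endothelial cells made up 0.280%, 4.27% and 1.65% of CBMA and 0.339%, 1.03% and 0.694% of CBMD cells, and mural cells 0.128%, 0.478% and 0.705% of CBMA and 0.302%, 0.112% and 0% of CBMD cells. How many of these cells the digestion released at each age was not tested, and a share of captured cells and a number of cells in the bone cannot be told apart here.

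Cxcl12, the retention signal itself, reached its highest levels in marrow reticular cells. In the reticular sub-clusters its level was 36129, 26290.0 and 27372 CPM with age across CBMA, and 32671 and 29687 CPM at 12m and 18m in CBMD. The 02m value rests on 2 cells with 109 Cxcl12 UMIs. Of the 4 reticular cells of CBMA_12m, 1 held 374 of 456 UMIs, and without it the level was 10405 CPM (8275 to 12915). The ratio of 18m to 02m in CBMA was 0.758 (0.628 to 0.923) within these cells, short of the 1.5-fold used as the call throughout.

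The wider Lepr-positive class, whose make-up differed with age, showed a larger difference in level. Cxcl12 stood at 691, 8956 and 19119 CPM in CBMA and at 164, 24419 and 26453 CPM in CBMD, and it was 27.6-fold (21.2 to 36.7) higher at 18m than at 02m in CBMA and 161-fold (94.3 to 303) higher in CBMD. At 02m it had 55 UMIs in CBMA and 13 in CBMD, over 8 cells each. In CBMA_02m 1 reticular cell of 1383 UMIs held 47 of the 55, and without it the level was 102 CPM and the ratio of 18m to 02m 187 (94.8 to 433). In CBMA_12m a single cell held 374 of the 476 Cxcl12 UMIs, and without it the level was 2335 CPM. Other stroma had 488, 286 and 780.0 CPM across CBMA and 111, 1886 and 8379 CPM across CBMD, where the last value rests on 8 cells.

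Single cells showed the same split between few high cells and many low ones. A stromal cell of CBMA had at least 20 Cxcl12 UMIs in 3 of 54, 3 of 35 and 106 of 272 cells at 02m, 12m and 18m, and of CBMD in 0 of 46, 26 of 46 and 48 of 56 cells. A Lepr-positive cell held a median of 0.5, 1 and 170.5 Cxcl12 UMIs across CBMA and of 1, 88.5 and 165 across CBMD. The median total of these cells was 10896, 3145 and 8382 UMIs across CBMA and 9971, 4951.5 and 6501.5 UMIs across CBMD. Of the 206 stromal Cxcl12 UMIs of CBMA_02m, 2 cells held 128 (62.1%), and 78 remained without them. As a measure of free RNA, 2.05% of neutrophils had a Cxcl12 UMI (0.136% to 4.55% a library, median depth 2854 UMIs), against 88.2% of Lepr-positive cells (median depth 7531 UMIs).

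**Figure D2:**
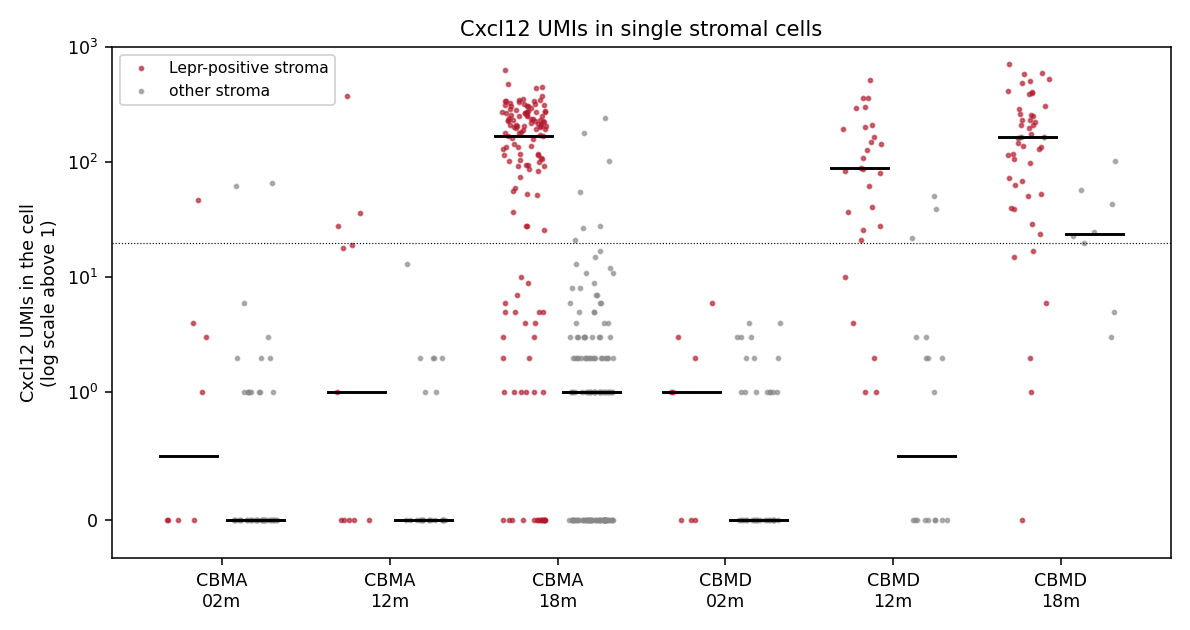
Cxcl12 UMIs in each stromal cell (vertical axis, log scale above 1), by library, for Lepr-positive cells (red) and other stroma (grey), with black bars at the medians and a dotted line at 20 UMIs. The Lepr-positive medians, in order of age, were 0.5, 1 and 170.5 across CBMA and 1, 88.5 and 165 across CBMD.

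Number and level could be set side by side by splitting what stroma contributed to each library. Stromal cells gave 562.7 CPM of Cxcl12 to the whole of CBMA_18m, against 4.06 CPM to CBMA_02m, a log2 difference of 7.12. Of this, 2.91 came from the larger stromal share of the library's UMIs and 4.20 from the higher level within stroma. In CBMD the contribution was 304 CPM at 18m, against 0.988 CPM at 02m, a log2 difference of 8.27 made of 0.60 for the share and 7.67 for the level. In log2 terms the level within stroma was the larger term at both sites, but with cells thinned to 1000 UMIs the order turned in CBMA, at 2.58 for the share and 2.49 for the level (0.57 and 6.80 in CBMD). Reticular cells were 96 of 272 stromal cells in CBMA_18m, against 2 of 54 in CBMA_02m. In CBMD they were 40 of 56 at 18m, against 0 of 46 at 02m. Some cells outside the reticular sub-clusters were high too. A sub-cluster led by the osteoblast gene Bglap had 10379 CPM of Cxcl12 over all libraries. It held 8 cells of CBMA_18m and 15 of CBMD_18m, against 1 of CBMA_02m and 1 of CBMD_02m. How far each kind of cell made up the level term was not tested.

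The same split was made for 6 more genes, all but Adipoq, Il7 and Cxcr4, and in CBMA the order differed for 2 of them. In CBMA the level term for 18m over 02m was 3.95 for Kitl, 4.54 for Vcam1, 3.54 for Lepr and 3.30 for Ebf3, each above the 2.91 of the share, while it was 1.71 for Foxc1 and 0.45 for Angpt1. In CBMD the level term was 7.73 for Kitl, 6.45 for Vcam1, 4.10 for Lepr, 4.14 for Ebf3, 3.01 for Foxc1 and 1.58 for Angpt1, each above the 0.60 of the share. The share term is the same number for every gene of a site, since it counts all UMIs of the stromal cells.

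**Figure D3:**
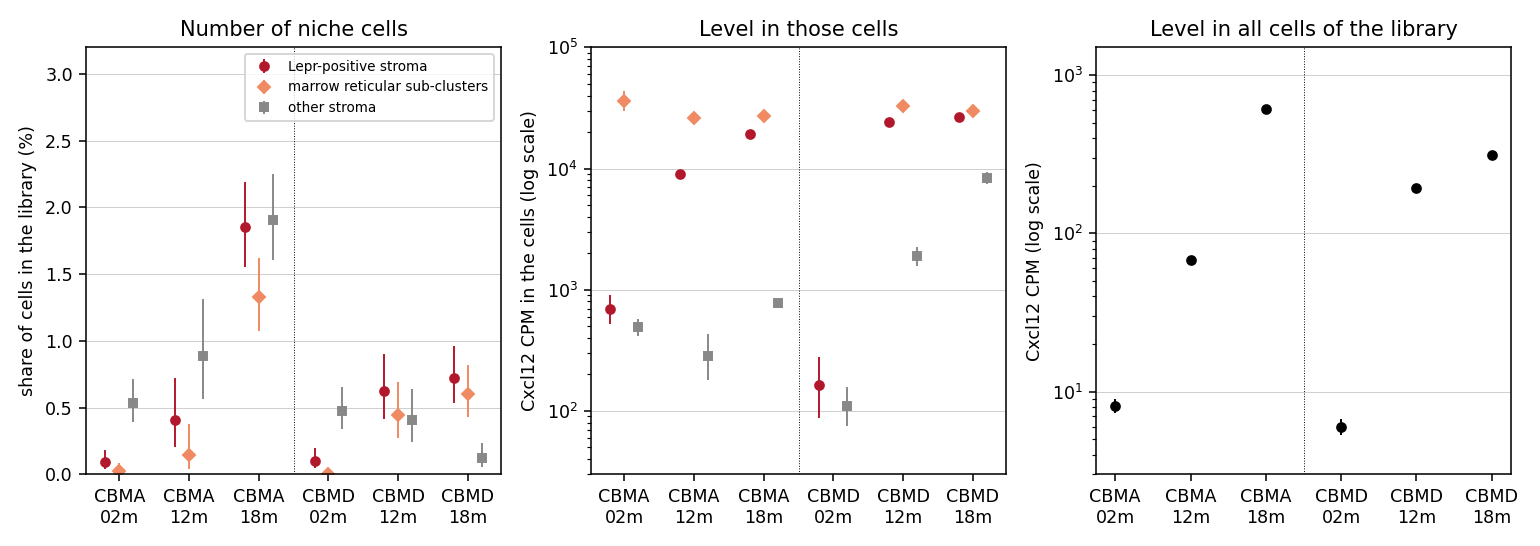
Left, share of a library's cells in Lepr-positive stroma, marrow reticular sub-clusters and other stroma (%). Middle, Cxcl12 CPM in those cells (log scale). Right, Cxcl12 CPM over all cells of the library (log scale). Bars are 95% counting intervals. The reticular level lay between 26290.0 and 36129 CPM, values that rest on 4 cells at CBMA_12m and 2 at CBMA_02m, while CBMA held 2, 4 and 96 of them and CBMD 0, 20 and 40.

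Over all cells of a library, which needs no cell naming, Cxcl12 stood at 8.10, 67.6 and 610.4 CPM in CBMA and at 5.97, 192 and 313 CPM in CBMD. It was 75.4-fold (68.4 to 83.3) higher at 18m than at 02m in CBMA and 52.3-fold (46.3 to 59.3) higher in CBMD. With doublets left out the CBMA log2 ratio was 7.14 in place of 6.24, and within stroma 6.79 in place of 4.20. A gene is called higher or lower here where the 2 CPM values are at least 1.5-fold apart with at least 50 UMIs over both. By that rule 9 of the 10 genes were higher at 18m at each site (all but Cxcr4), where 33.7% of all genes with enough UMIs were higher in CBMA and 22.7% in CBMD. Within stroma 8 of 9 genes with enough UMIs were higher at 18m in CBMA (29.8% of all genes) and 8 of 8 in CBMD (24.8% of all genes).

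Kitl, which blood stem and progenitor cells need through the receptor Kit, moved with Cxcl12 in stroma and less in vessels. In Lepr-positive stroma it had 50.3, 263 and 1083 CPM across CBMA and 0, 1179.7 and 1852 CPM across CBMD, and it was 21.5-fold (8.39 to 79.1) higher at 18m than at 02m in CBMA. At CBMD_02m it had 0 UMIs in 8 cells, and the lower end of the interval of the ratio was 39.7. Endothelial cells had 247, 379 and 410.2 CPM across CBMA and 375, 258 and 139 CPM across CBMD, 1.66-fold (1.16 to 2.45) as much at 18m as at 02m in CBMA and 0.370-fold (0.240 to 0.569) in CBMD. With doublets left out the CBMA ratio was 1.23 (0.812 to 1.96), short of the call. Counted over the set, endothelial cells were higher at 18m than at 02m for 3 of 5 genes with enough UMIs in CBMA (Kitl, Ebf3 and Foxc1, against 19.9% of all genes) and for 1 of 3 in CBMD (Vcam1, against 17.5%), and lower for Cxcl12 and Kitl in CBMD (31.6%). Of these, the CBMA interval of Foxc1 (0.872 to 3.39) spans 1. Mural cells, the pericytes and smooth muscle of vessels, had 105, 246 and 240.1 CPM across CBMA and 357 and 483 CPM at 02m and 12m in CBMD, and 0 mural cells were found in CBMD_18m. At 02m the vascular cells thus had a higher Kitl CPM than either stromal class.

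At 18m Kitl and Cxcl12 were often found in the same cells. Of the Lepr-positive cells of CBMA_18m 70.9% had a UMI of both, against 8.70% of other stromal cells there, while in CBMD_18m 42 of 48 did, against 6 of 8. At 02m it was 1 of 8 Lepr-positive cells in CBMA and 0 of 8 in CBMD. Over all libraries 5 of the 173 Lepr-positive cells with Kitl had no Cxcl12 UMI. Over 8 genes of the set (Lepr and Cxcr4 not counted) a Lepr-positive cell of CBMA had a median of 2.5, 2 and 7 detected at 02m, 12m and 18m, and of CBMD a median of 2, 5 and 7. At least 4 of the 8 were detected in 73.1% of the Lepr-positive cells of CBMA_18m, against 6.52% of other stromal cells there. In CBMD_18m it was 43 of 48, against 6 of 8, and at 02m 3 of 8 Lepr-positive cells in CBMA and 0 of 8 in CBMD.

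Il7, the cytokine that early B cells need, was scarce and, within stroma, was found almost only in Lepr-positive cells (142 of 151 UMIs). It had 0, 37.6 and 81.2 CPM there in CBMA (0, 2 and 91 UMIs) and 0, 52.4 and 110.0 CPM in CBMD (0, 8 and 41 UMIs), against 0, 0 and 7.69 CPM in other stroma of CBMA and 0 UMIs in that of CBMD. At 02m, 0 UMIs in 8 cells allow up to 37.7 CPM across CBMA and 37.9 CPM in CBMD (3 UMIs in each library), so a difference from the 37.6 CPM of CBMA_12m was not detectable at this depth, while the values at 18m lay above these limits. B-lineage cells themselves had 0 Il7 UMIs in 1026 cells, which allows up to 0.320 CPM (3 UMIs of their 9387780 over all libraries). Its receptor Il7r was highest in T cells, at 438 CPM, against 25.9 CPM in B-lineage cells.

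Vcam1, the adhesion molecule bound by the integrin of Itga4 and Itgb1, was high in reticular cells, vessels and marrow macrophages. Lepr-positive stroma had 50.3, 659 and 1393 CPM across CBMA and 12.6, 1540.1 and 1760.5 CPM across CBMD. Endothelial cells had 552, 346 and 427 CPM across CBMA and 252, 680.1 and 1281 CPM across CBMD, where the ratio of 18m to 02m was 5.07 (3.55 to 7.47), against 0.774 (0.600 to 1.01) in CBMA. With doublets left out, the endothelial ratio was 79.0 (21.7 to 654) in CBMD, where 2 UMIs remained at 02m, and 0.452 (0.329 to 0.631) in CBMA. Macrophages and dendritic cells had 7.53, 38.3 and 336 CPM in CBMA (4, 34 and 1174 UMIs) and 2.38, 175 and 539 CPM in CBMD (2, 248 and 1136 UMIs). In macrophages and dendritic cells the ratio of 18m to 02m was 44.6 (17.4 to 164) in CBMA and 226 (62.5 to 1869) in CBMD, so Vcam1 was also higher outside the stroma. The make-up of this class differed between the ages, since 196 of its 444 cells in CBMA_18m had a UMI of the macrophage gene C1qa, against 13 of 64 in CBMA_02m, and 111 of 283 in CBMD_18m, against 17 of 86 in CBMD_02m. In the cells with a C1qa UMI Vcam1 was at 889 CPM in CBMA_18m, against 27.0 CPM (4 UMIs) in CBMA_02m. In CBMD_18m it was at 1388 CPM, against 0 UMIs in CBMD_02m, which allows up to 16.4 CPM (3 UMIs). Among the cells that carry its receptor, Itga4 was highest in monocytes, at 282 CPM over all libraries.

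Angpt1, the ligand of the endothelial receptor Tek, differed least between 18m and 02m among the genes of the set with enough UMIs in Lepr-positive stroma. Lepr-positive cells had 50.3, 132 and 135 CPM across CBMA and 139, 111 and 207 CPM across CBMD, and the ratio of 18m to 02m was 2.68 (1.02 to 9.96) in CBMA and 1.49 (0.787 to 3.11) in CBMD, which was not called. Progenitors had 79.5, 118 and 303 CPM across CBMA and 188, 160.0 and 229 CPM across CBMD, 3.81-fold (2.98 to 4.93) higher at 18m than at 02m in CBMA and 1.22-fold (1.02 to 1.47) in CBMD. Basophils lay between 115 and 136 CPM in all 6 libraries. The receptors Tek and Tie1 were highest in endothelial cells, at 312 and 404 CPM, and Angpt2, the other ligand of Tek, in Lepr-positive stroma, at 64.0 CPM.

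Adipoq, the adiponectin gene and a known label of marrow reticular cells with adipocyte traits, was the most restricted gene. It had 37.7, 319.9 and 829 CPM in Lepr-positive stroma of CBMA and 0, 1173 and 856 CPM in that of CBMD, against 3.23, 0 and 0.854 CPM in other stroma of CBMA and 0, 45.3 and 60.1 CPM in that of CBMD. Lepr-positive cells had 971-fold (174 to 38390.4) as much as other stroma at 18m in CBMA, where other stroma held 1 UMI, and 14.3-fold (3.91 to 118) as much in CBMD, where it held 2. Within reticular cells it was 994, 980.1 and 1211 CPM across CBMA and 2013 and 1071 CPM at 12m and 18m in CBMD. Of its receptors, Adipor1 was highest in neutrophils (682 CPM) and Cdh13 in endothelial cells (104 CPM).

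The 2 transcription factors differed in how far they were confined. Ebf3, a factor that keeps reticular cells from turning into bone, had 75.4, 583 and 805 CPM in Lepr-positive stroma of CBMA and 126, 708 and 1006 CPM in that of CBMD, against 32.3, 0 and 23.1 CPM in other stroma of CBMA and 32.2, 60.4 and 150.2 CPM in that of CBMD. Foxc1, a factor required for reticular cells and also active in other mesenchyme, had 101, 169 and 458 CPM in Lepr-positive stroma of CBMA and 88.3, 485 and 534 CPM in that of CBMD, against 103, 298 and 219.6 CPM in other stroma of CBMA and 64.3, 196 and 841 CPM in that of CBMD. Mural cells had 143 to 301 CPM of Foxc1 in the 5 libraries that held them. At 18m the ratio of Lepr-positive to other stroma was 34.9 (23.8 to 53.3) for Ebf3 and 2.08 (1.79 to 2.43) for Foxc1 in CBMA, and the 2 intervals do not overlap.

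**Figure D4:**
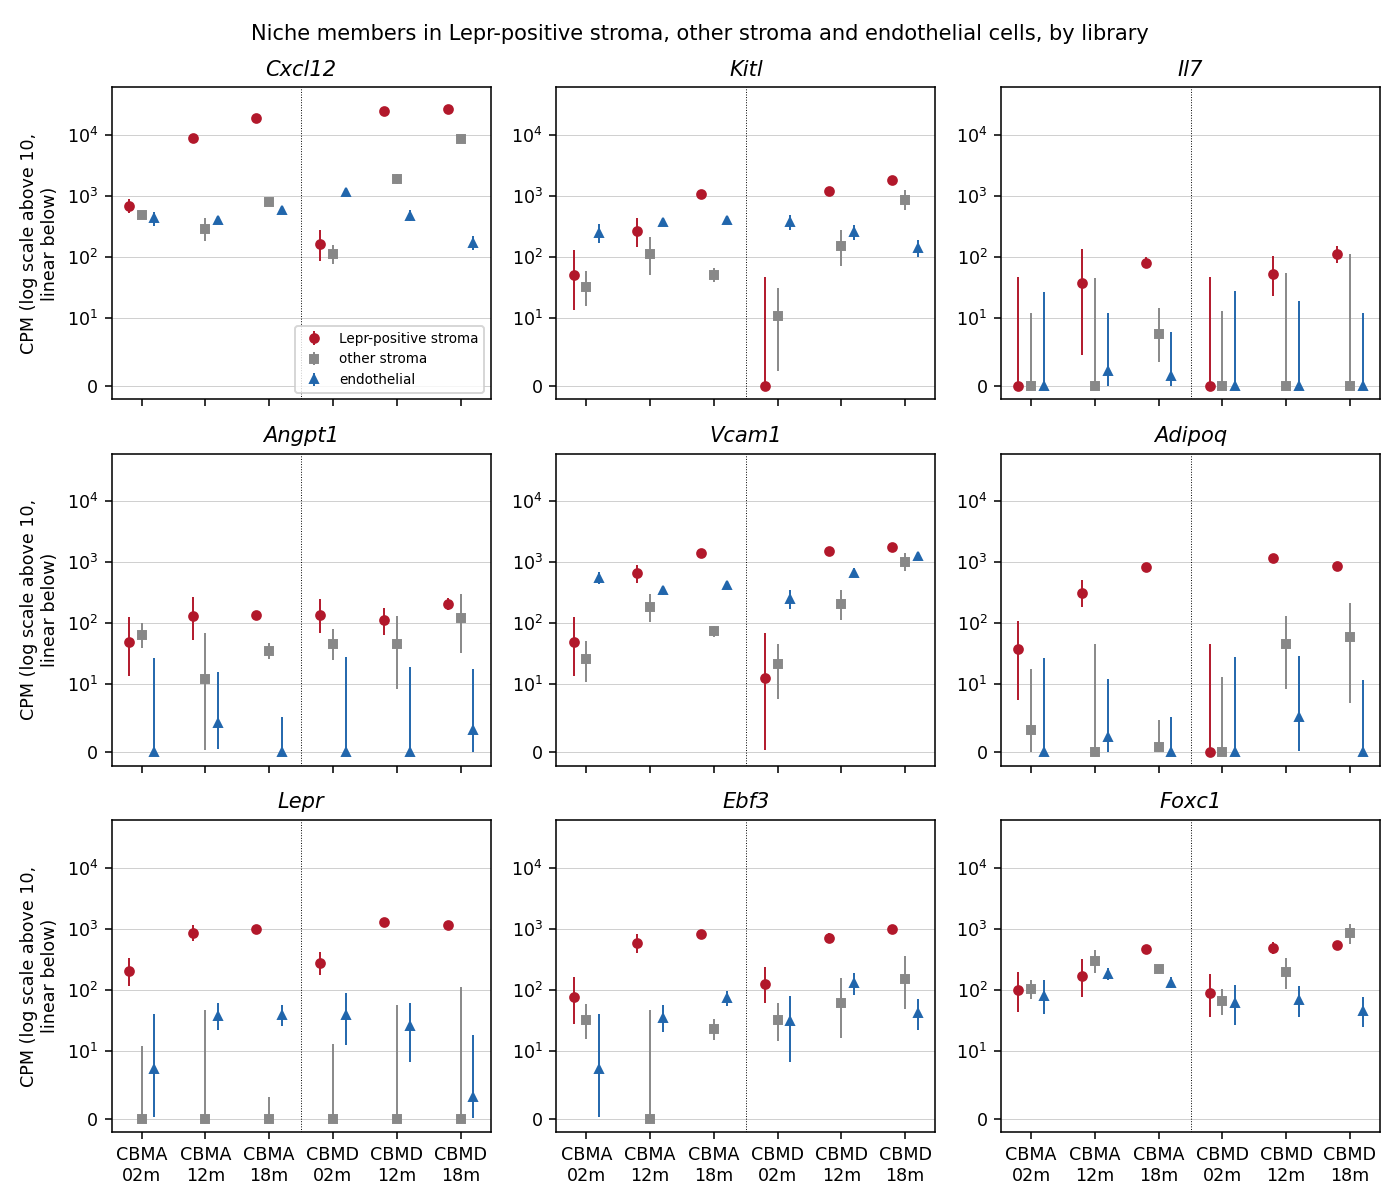
CPM of 9 genes (log scale above 10, linear below) in Lepr-positive stroma (red circles), other stroma (grey squares) and endothelial cells (blue triangles), by library, with 95% counting intervals. Cxcl12 in Lepr-positive stroma was 691, 8956 and 19119 CPM across CBMA and 164, 24419 and 26453 CPM across CBMD, and Lepr is 0 in other stroma by the rule.

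Set side by side at 18m, Lepr-positive stroma of CBMA was higher than other stroma for 8 of the 8 genes with enough UMIs (Lepr and Cxcr4 not among them), with a median log2 ratio of 4.31, against 0.06 over all genes, of which 16.8% were higher. In CBMD 6 of 7 were higher and Foxc1 was lower, at 0.635-fold (0.426 to 0.980), with a median of 1.09 against 0.32 over all genes, of which 40.3% were higher and 15.8% lower. The CBMD count stands on 8 other cells, of which 6 had at least 20 Cxcl12 UMIs, and 2 genes were called there with cells thinned to 1000 UMIs. Between ages, 8 of 8 genes were higher at 18m than at 02m in Lepr-positive stroma of CBMA (39.0% of all genes), and 6 of 7 in CBMD (33.9% of all genes).

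Sites were compared at 18m, the age with most niche cells. Within Lepr-positive stroma CBMA was higher than CBMD for 0 of 8 genes (15.6% of all genes) and lower for 2, Kitl at 0.585-fold (0.532 to 0.643) and Angpt1 at 0.652-fold (0.492 to 0.869), where 6.80% of all genes were lower. Within reticular sub-clusters 0 of 9 genes were called (11.9% of all genes higher and 4.54% lower), with ratios of CBMA to CBMD between 0.690 and 1.13, and neither Kitl, at 0.807 (0.729 to 0.894), nor Angpt1, at 0.690 (0.511 to 0.939), reached the fold. Over stroma as a whole CBMA was lower for 9 of 9 genes (11.5% of all genes), among them Cxcl12 at 0.391-fold (0.381 to 0.400), and over all cells it was higher for 7 of 10 (14.1% of all genes), among them Cxcl12 at 1.95-fold (1.91 to 2.00). The direction between the sites thus depended on the cells counted. Reticular cells were a larger share of all cells in CBMA_18m than in CBMD_18m (96 of 7232, against 40 of 6626). They were a smaller share of its stromal cells (96 of 272, against 40 of 56). The part of this make-up in the directions was not tested.

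Where stroma was divided further, 3 sub-clusters held the high levels of Cxcl12 and Kitl. The reticular cells led by Rgs16 and Cxcl9 (108 cells) had 28358 CPM of Cxcl12 and 1683 CPM of Kitl, and those led by C3 and Trf (54 cells) had 28409 CPM of Cxcl12 and 1219 CPM of Kitl. A sub-cluster led by Bglap, the osteoblast gene osteocalcin, (56 cells) had 10379 CPM of Cxcl12 and 1068 CPM of Kitl, with 318 CPM of Lepr and 17.3 CPM of Adipoq. Among the others, the cells led by Slc4a10 (124 cells, left unnamed, 87 of them from CBMA_18m) had 605 CPM of Cxcl12 and 286 CPM of Foxc1. Those led by Postn, Sfrp2, Hmcn2 and Dio2 had 68.1 to 244 CPM of Cxcl12. Foxc1 was more widely spread, at 331 CPM in the Dio2-led cells, against 392 CPM in the C3-led and 558 CPM in the Rgs16-led reticular cells. It was at 11.1 to 92.4 CPM in the cells led by Postn, Sfrp2 and Hmcn2.

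Other niche genes, 24 in number, were listed beside the set. At 18m in CBMA 12 of 17 with enough UMIs were higher in Lepr-positive than in other stroma, against 16.8% of all genes. Among them were the macrophage growth factors Csf1 and Il34, the BMP genes Bmp4 and Bmp6 and the BMP antagonist Grem1. The growth factor Ptn and the forkhead gene Foxc2 were lower there. In CBMD 11 of 13 were higher, against 40.3% of all genes, and other stroma there was 8 cells. Over all libraries Csf1 had 468 CPM in Lepr-positive stroma, against 104 CPM in other stroma, and Grem1 had 370 CPM, against 16.5 CPM. Of 14 receptors and partners, Kit was highest in progenitors (167 CPM) and the second Cxcl12 receptor Ackr3 in endothelial cells (40.9 CPM), while the leptin gene Lep and, of the niche list, the platelet growth factor gene Thpo did not pass the gene filter.

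By the pattern over 69 pools of 1 class in 1 library, the genes most like Cxcl12 were Gas6 (Pearson r = 0.94), Bgn (0.93), Cp (0.93), Fstl1 (0.91) and Zcchc14 (0.91), and within the set Kitl (0.94), Foxc1 (0.92) and Ebf3 (0.91). Gas6, Bgn and Fstl1 are among the markers that named stroma. The genes most like Cxcr4 were Itgal (0.89), Cytip (0.89), Cd53 (0.89), Arhgap30 (0.89) and Fmnl1 (0.88), which are known from blood cells. Pools of a library share its depth and free RNA, so these values describe the pools only.

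Cxcr4, the receptor that keeps neutrophils and progenitors in marrow, was read in the classes that carry it. Among neutrophils it was highest in the cluster led by Ptgs2, at 376, 795 and 506 CPM with age across CBMA and 423, 1147 and 459.8 CPM in CBMD. It was lowest in the clusters led by Fcnb and Ltf, genes of early neutrophil stages, at 107, 236 and 133 CPM and 108, 243 and 116 CPM in CBMA, and at 97.1, 225 and 111 CPM and 112, 227 and 111 CPM in CBMD. Clusters led by Nlrp12, Thbs1, Ly6g and Ifit3b lay between them in CPM in each library. The Ptgs2-led cluster was thus above the Fcnb-led and Ltf-led clusters in all 6 libraries.

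Between ages the class as a whole and its clusters did not move alike. All neutrophils had 211, 324 and 324 CPM across CBMA and 319, 728 and 376 CPM across CBMD, and the ratio of 18m to 02m was 1.54 (1.47 to 1.60) in CBMA, where 14.4% of all genes were higher, and 1.18 (1.13 to 1.22) in CBMD. The CBMA value fell short of 1.5-fold, at a log2 ratio of 0.51 at a mitochondrial limit of 10%, 0.48 with cells thinned and 0.54 with no upper limit on genes. Within the 7 neutrophil clusters the ratio lay between 0.93 and 1.35 in CBMA and between 0.93 and 1.16 in CBMD, so none reached 1.5. The Ptgs2-led cluster held 1022 of 4369 neutrophils in CBMA_18m, against 151 of 5061 in CBMA_02m, and 1352 of 4158 in CBMD_18m, against 737 of 5131 in CBMD_02m. With each cell thinned to 1000 UMIs, a Cxcr4 UMI was found in 25.4% of neutrophils in CBMA_18m, against 20.8% in CBMA_02m (52.4% and 44.7% unthinned), and in 30.5% in CBMD_18m, against 26.7% in CBMD_02m (54.2% and 55.3% unthinned).

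Other blood cells followed in part. Monocytes had 85.0, 223 and 159 CPM across CBMA and 149, 471 and 174 CPM across CBMD, with a ratio of 18m to 02m of 1.87 (1.73 to 2.02) in CBMA, where 21.4% of all genes were higher, and 1.16 (1.09 to 1.24) in CBMD. T cells had 76.6, 236 and 199.6 CPM across CBMA and 66.4, 369.6 and 222 CPM across CBMD, with ratios of 2.61 (2.09 to 3.27) and 3.34 (2.29 to 5.05). B-lineage cells had 78.3, 159 and 109 CPM across CBMA and 129.7, 269 and 101 CPM across CBMD, and progenitors 55.0, 234 and 71.1 CPM across CBMA and 62.9, 209.7 and 49.8 CPM across CBMD, with intervals of the ratio that reached 1 or below in each. Of the classes named here, only T cells had Cxcr4 more than 1.5-fold higher at 18m at both sites.

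Cxcr4 was highest at 12m in monocytes, T cells, B-lineage cells and progenitors at both sites and in each neutrophil cluster, in the 2 libraries that carry Xist. In the progenitors of those libraries the median depth was 1270 and 1465 UMIs, against 6060 to 9168 in the other 4. In stroma Cxcr4 stood at 2.57, 44.9 and 6.11 CPM across CBMA and 13.9, 114 and 7.39 CPM across CBMD, and 1 cell held 14 of the 25 UMIs of CBMD_12m. The source of these UMIs was not tested.

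**Figure D5:**
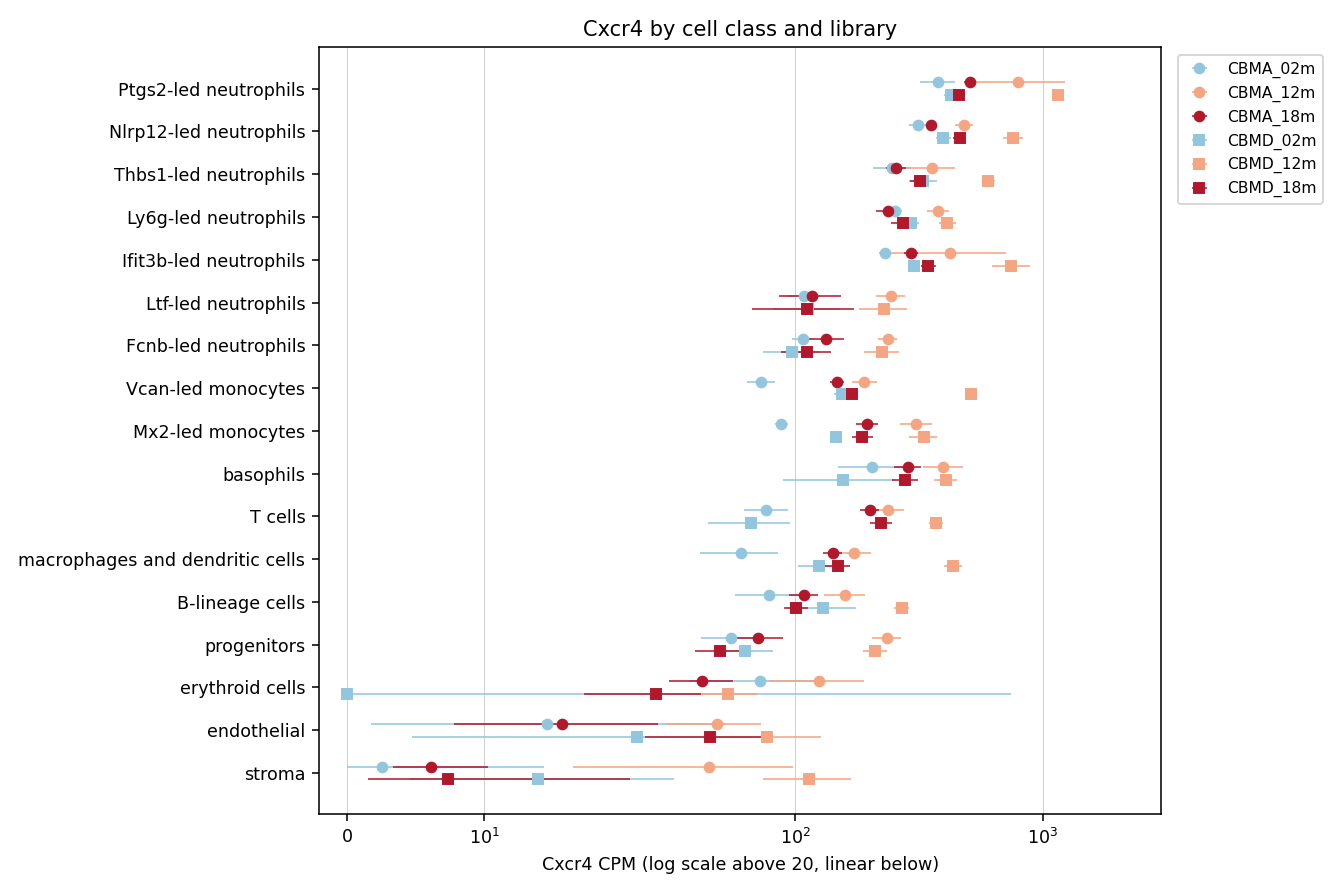
Cxcr4 CPM (horizontal axis, log scale above 20, linear below) by cell class, for CBMA (circles) and CBMD (squares) at 02m (blue), 12m (orange) and 18m (red), with 95% counting intervals. The 12m values were the highest of each site in all neutrophil clusters, and the Ptgs2-led cluster had 376 to 1147 CPM, against 2.57 to 114 CPM in stroma.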

How the data were processed

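Per the labels and the study's methods, calvarial cells were captured by droplet single-cell RNA-seq. The authors deposited a matrix of raw UMI counts for each library, made with bcl2fastq and Cell Ranger on GRCm38, with the annotation release not given in the sources used here. Cells with 500 to 5000 genes, more than 500 UMIs and less than 25% mitochondrial UMIs were kept, as were genes found in more than 3 cells. Clusters came from 2000 variable genes (the 10 genes left out), 10 components, 20 neighbours and Leiden resolution 0.8 (scanpy 1.11.5, leidenalg 0.10.2, Python 3.11.15). They were named from fixed markers. A rule added after seeing the data withheld the name neutrophil precursors from a cluster with monocyte markers above Fcnb and Chil3. It left the histone-led cluster (1853 cells) unnamed and outside the neutrophils. Doublets were kept, and leaving them out was an alternative.

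UMIs were summed per class and library and divided by the class total (CPM). A call needed a fold of 1.5 and 50 UMIs over both sums, and 0.5 UMI was added for the call where a sum was 0. Ratios have exact conditional intervals (scipy 1.17.1), and no p was computed, since each condition had 1 library. The call was tried on simulated counts with Poisson error only, at the depth of the CBMA_18m stroma. Variation between cells and the few cells of 02m were not covered by that simulation. Named genes were the 10 chosen by symbol, the fixed lists beside them, the genes leading clusters, and the 5 most like Cxcl12 and the 5 most like Cxcr4 by correlation of log2(CPM + 1). Members and lists were chosen with earlier results of these data known. Promoters are from RefSeq (GRCm38.p6).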

Additional observations from a re-analysis of the deposited data

Results flagged for a closer look

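The difference between sites had the opposite direction at 18m and at 02m for 7 values, and the difference between ages that of the other site for 1. None of these differences was tested, since each condition was 1 library, and the intervals cover counting error only. Cxcl12 in stroma was 0.391-fold (0.381 to 0.400) in CBMA relative to CBMD at 18m, against 4.32-fold (3.11 to 6.13) at 02m, and in other stroma 0.0931-fold (0.0813 to 0.107), against 4.41-fold (2.98 to 6.71). Both 02m values rest on 2 cells of CBMA_02m that held 128 of its 206 stromal UMIs. Without them the ratio at 02m was 1.66 (1.13 to 2.46) in stroma and 0.682 (0.380 to 1.21) in other stroma, and with doublets left out 0.710 (0.420 to 1.18) and 0.777 (0.410 to 1.44), so the opposite direction was not kept in other stroma under either and in stroma without doublets. The 18m value of other stroma in CBMD rests on 8 cells. Cxcl12 in endothelial cells was 3.38-fold (2.53 to 4.59) at 18m, against 0.369-fold (0.268 to 0.501) at 02m. Vcam1 in endothelial cells ran the other way, at 0.334-fold (0.286 to 0.389) at 18m, against 2.19-fold (1.44 to 3.40) at 02m, where leaving out doublets left 49 UMIs in CBMA and 2 in CBMD (interval of the ratio 10.8 to 348). Over all cells the ratio of CBMA to CBMD was 1.88 (1.73 to 2.05) at 18m, against 0.458 (0.329 to 0.631) at 02m for Kitl, 2.30 (2.06 to 2.57), against 0.658 (0.430 to 0.999) for Lepr, and 2.19 (1.95 to 2.46), against 0.429 (0.245 to 0.729) for Ebf3. Kitl in endothelial cells was 1.66-fold (1.16 to 2.45) at 18m relative to 02m in CBMA and 0.370-fold (0.240 to 0.569) in CBMD, and with doublets left out 1.23-fold (0.812 to 1.96) and 0.357-fold (0.231 to 0.551).

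Cxcl12 was also found in cells outside the named classes. The 1587 cells with more than 5000 genes, left out by the upper limit and used only in the alternative with no such limit, had 120.5 CPM of Cxcl12, and 17 of them had at least 20 UMIs. The 45 cells of the mesenchymal cluster led by neutrophil genes, left out of stroma but counted in the values over all cells, had 3539 CPM (3334 to 3754).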

How the results depend on the processing

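Of 109 values under another setting, 82 stayed within the counting interval or, for gene counts, within 1.5 times the count. Another 26 moved further and 1 changed sign, and for all of them the cause was not tested. Cxcl12 over all cells uses no clusters. Its values with the 10 genes kept in clustering and with 30 principal components could therefore not change, yet they count among the 82. In CBMA the log2 ratio of 18m to 02m of Cxcl12 over all cells, 6.24, was 7.14 with doublets left out, 4.76 with cells thinned to 1000 UMIs, 6.00 with median-of-ratios scaling and 5.96 with no upper limit on genes. Within stroma, 4.20, it was 6.79 with doublets left out, 2.49 thinned, 4.58 without the Slc4a10-led sub-cluster and 5.58 without the 2 cells of CBMA_02m with most Cxcl12 UMIs. For Cxcr4 in neutrophils, 0.62, it was 0.51 at a mitochondrial limit of 10%, 0.48 thinned, 0.73 with median-of-ratios scaling and 0.54 with no upper limit, and in monocytes, 0.90, it was 0.73, 0.72 and 1.03 for the last 3 of these. In CBMD Cxcl12 over all cells, 5.71, was 4.94 thinned, and in stroma, 7.67, it was 6.80 thinned and 8.33 without the Slc4a10-led sub-cluster. Cxcr4 in CBMD monocytes, 0.22, was 0.091 with the 10 genes kept in clustering, 0.078 with median-of-ratios scaling and -0.025 thinned. Genes higher in Lepr-positive than other stroma of CBMD, 6 of 7, were 2 of 3 with enough UMIs thinned, and 4 of 7 (without Vcam1 and Angpt1) with doublets left out, at the 10% limit and at a fold of 2. Genes apart between CBMA and CBMD in Lepr-positive stroma, 2, were 0 thinned, 0 at a fold of 2, 1 with at least 2 Lepr UMIs, 0 in reticular cells and 0 without the Slc4a10-led sub-cluster. Dropping the upper limit, the Slc4a10-led cells and the 2 cells was chosen after seeing the data, as was the naming rule that left the histone-led cluster unnamed. No paired analysis was possible because the labels give every library the replicate number 1 and each condition was 1 library. Pairing the sites by age would take the 3 ages as replicates and was not run. At 02m the few niche cells limit each value.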
